A study of Rattus norvegicus with 8 samples.

Results

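Genes of myelin and of the oligodendrocyte were followed across hippocampal pools of self-stimulating and Sham rats. The set was given by name as Mbp, Mog, Mag, Cnp, Mal, Mobp, Cldn11, Ugt8 and Olig1. All 9 were measured, by 16 array features, among 14871 named genes. In the ICSS group, rats with an electrode aimed at the lateral hypothalamus of the right hemisphere earned 2500 trains of current in 1 acute session. Trains lasted 0.3 s, at 50 Hz and 10 to 400 µA. In intracranial self-stimulation (ICSS) an animal works for rewarding current to its brain. In the Sham group, rats carried the same electrode and spent 40 min in the box without current. All animals were 13-week-old male Wistar rats, and all had recovered from surgery for 7 days. Before that session, in sessions of 20 min on 2 days, ICSS rats were trained to self-stimulate, while Sham rats only explored the box. Each group had 4 pools, each pool held the hippocampi of 3 rats from the side of the electrode, and each pool was labelled with Cy5 on 1 array against a Cy3-labelled common reference of brain tissue, so every level below is a log2 ratio with the reference beneath. The sources used here do not give the time from session to dissection. Pools average their animals, so the spread between single rats cannot be seen.

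Myelin is the stacked membrane that oligodendrocytes wrap around axons. Precursor cells that carry Pdgfra and Cspg4 differentiate, under transcription factors such as Olig1, Olig2, Sox10 and Myrf, into mature cells that make sheath proteins and large amounts of galactolipid and cholesterol. In the hippocampus, myelin is dense in the alveus and fimbria, the fibre tracts at its border, and sparser in the cell layers.

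Median ratios of the 8 arrays were -0.032 to 0.016, and Pearson r for pairs of arrays ran from 0.586 to 0.873. Sham replicate 4 stood apart, with correlations between 0.586 and 0.779, and also had the lowest array weight in limma, at 0.566. The differences of the 9 genes are therefore given with and without it, and those of other genes where leaving it out moved them by over 1.5 times. Of 10 hippocampus markers measured, the mean log2 ratio lay from 0.46 to 0.57 across ICSS pools, against 0.66 to 0.75 across Sham pools. For 14 thalamus markers it lay from -0.75 to -0.40 across ICSS pools, against -0.80 to -0.64 across Sham pools. Both list means have the direction of hippocampus over a mixed reference, but not every gene does. Spink8 of the hippocampus list averaged -0.10 in ICSS pools and -0.086 in Sham pools. Tnnt1 of the thalamus list averaged 0.27 in ICSS pools and 0.32 in Sham pools. ICSS replicate 3 held the lowest hippocampus mean of the 8 pools, 0.46, and the highest thalamus mean, -0.40. Whether this bears on the 9 genes was not tested.

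None of the 9 genes passed the test of ICSS against Sham (limma, Benjamini-Hochberg adjusted p from 0.366 to 0.967 over 34738 units, threshold 0.05), and ICSS and Sham pools overlapped in all 9. Across all units, 16 passed, or 0.0461% (0.0259% higher and 0.0202% lower in ICSS), and the groups did not overlap in 7.80% (4.13% higher and 3.66% lower in ICSS). At an unadjusted p under 0.05, 1 of the 9 was found, Mal, against 12.6% of all units. The mean was higher in ICSS pools for 8 of the 9, against 52.8% of units, and the median difference was 0.21 for the 9 and 0.0078 for all units, on the log2 scale. Without Sham replicate 4 the mean was higher in ICSS pools for 5 of the 9, the median difference was 0.087, and again no member passed, against 0.0403% of all units. Without that pool 0 of the 9 reached an unadjusted p under 0.05, against 10.1% of units, and 0 of the 9 had groups that did not overlap, against 10.7% (5.67% higher in ICSS).

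**Figure D1:**
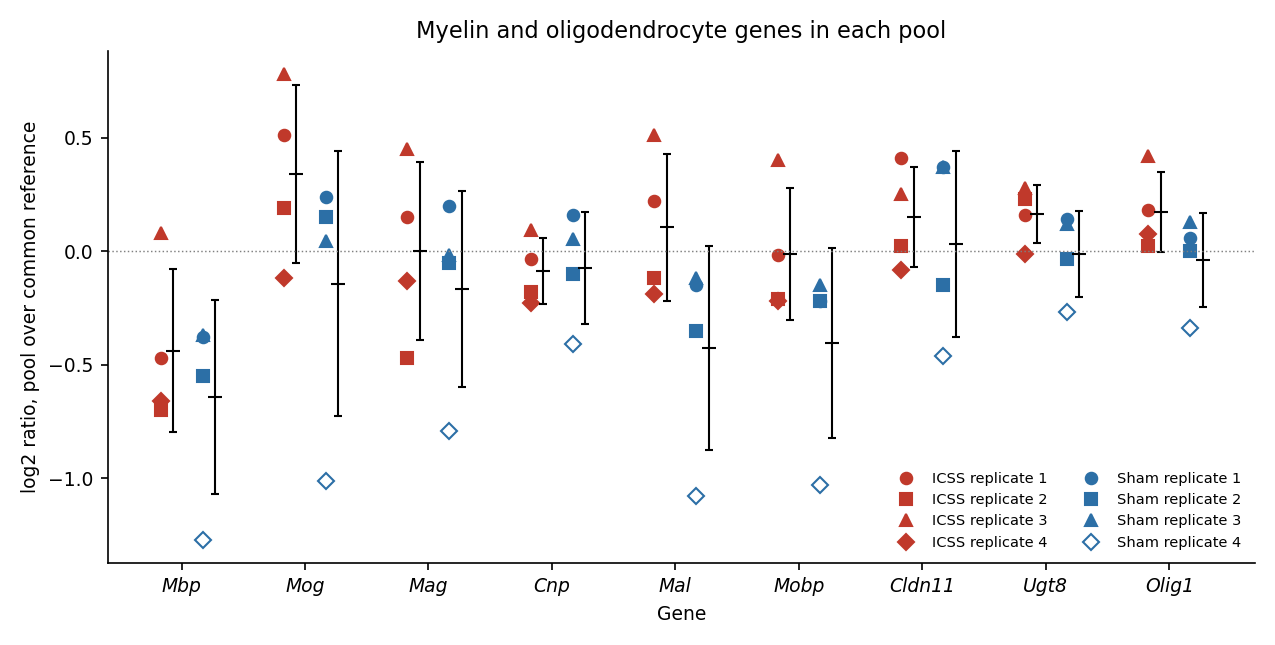
Log2 ratio to the common reference (vertical axis) of the 9 genes (horizontal axis) in each ICSS pool (red) and Sham pool (blue, Sham replicate 4 as an open diamond). Black bars give the mean and SD of 4 pools. Sham replicate 4 is the lowest of the 8 pools for every gene, and ICSS replicate 3 is the highest for 7 of the 9.

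Among the proteins of compact myelin, Mbp encodes myelin basic protein, which holds the cytoplasmic faces of the membrane together. Its log2 ratio was -0.47, -0.70, 0.078 and -0.66 in ICSS replicates 1 to 4, against -0.38, -0.55, -0.37 and -1.27 in Sham replicates 1 to 4. The groups overlapped, with ICSS replicate 3 alone above 0 and Sham replicate 4 well below the rest. The difference was 0.21 (SE 0.22, limma adjusted p = 0.728) with all pools and -0.0014 (SE 0.17) without Sham replicate 4. Mobp, the gene of another small basic protein of the compact sheath, stood at -0.019, -0.21, 0.40 and -0.22 in ICSS pools, against -0.22, -0.22, -0.15 and -1.03 in Sham pools. The 6 pools other than ICSS replicate 3 and Sham replicate 4 spanned 0.21 for Mobp, where all 8 pools spanned 1.43. Its difference was 0.40 (SE 0.20, limma adjusted p = 0.456), and 0.19 (SE 0.14) without Sham replicate 4.

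Mal encodes a membrane-spanning proteolipid that sorts raft lipids and proteins into myelin. It showed the largest difference of the 9, with 0.22, -0.12, 0.51 and -0.19 in ICSS pools, against -0.15, -0.35, -0.12 and -1.08 in Sham pools. ICSS replicates 1 and 3 lay above every Sham pool, ICSS replicate 2 was level with Sham replicate 3 to the digits given, and ICSS replicate 4 lay within the Sham range. Mal averaged 0.11 ± 0.32 over ICSS pools, against -0.43 ± 0.45 over Sham pools (SD, n = 4 each), a 1.45-fold ratio and a difference of 0.53 (SE 0.22, limma adjusted p = 0.366). Without Sham replicate 4 the difference of Mal was 0.31 (SE 0.16, limma adjusted p = 0.538). Mog, whose product sits on the outer face of the sheath, gave 0.51, 0.19, 0.78 and -0.12 in ICSS pools, against 0.24, 0.15, 0.044 and -1.01 in Sham pools. ICSS replicate 4 was below Sham replicates 1 to 3, so the order of the groups did not hold pool by pool. The Mog difference was 0.48 (SE 0.28, limma adjusted p = 0.503) with all pools and 0.19 (SE 0.18) without Sham replicate 4.

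Mag and Cnp belong to the uncompacted parts of the sheath. Mag encodes the glycoprotein of the inner layer that faces the axon, and stood at 0.15, -0.47, 0.45 and -0.13 in ICSS pools, against 0.20, -0.054, -0.018 and -0.79 in Sham pools. ICSS replicates 2 and 3 were the outer values of their group, and 3 of the 4 Sham pools lay between them. Cnp, the gene of the cyclic nucleotide phosphodiesterase that keeps cytoplasmic channels in myelin open, gave -0.035, -0.18, 0.093 and -0.23 in ICSS pools, against 0.16, -0.10, 0.053 and -0.41 in Sham pools. It was the member whose mean was not higher in ICSS pools, at -0.089 ± 0.15 against -0.073 ± 0.25 (SD, n = 4 each). Mag differed by 0.16 (SE 0.23, limma adjusted p = 0.801) and Cnp by -0.017 (SE 0.12, limma adjusted p = 0.967). Without Sham replicate 4 they were -0.045 (SE 0.19) and -0.13 (SE 0.095), so Mag then leaned the other way.

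Cldn11 encodes the claudin that forms the tight junctions between turns of the sheath. Its log2 ratio was 0.41, 0.023, 0.25 and -0.081 in ICSS pools, against 0.37, -0.15, 0.37 and -0.46 in Sham pools. Values near 0.4 occurred in both groups, in ICSS replicate 1 and in Sham replicates 1 and 3. The difference was 0.12 (SE 0.19), and -0.048 (SE 0.15) without Sham replicate 4. Ugt8, whose enzyme adds galactose to ceramide to make the main galactolipid of myelin, gave 0.16, 0.23, 0.28 and -0.011 in ICSS pools, against 0.14, -0.033, 0.12 and -0.27 in Sham pools. Its spread over all pools, 0.55, was the narrowest of the 9, as the mean of 3 features that did not move alike. The difference of Ugt8 was 0.17 (SE 0.10, limma adjusted p = 0.505), or 0.087 (SE 0.083) without Sham replicate 4. Olig1, a transcription factor of the whole lineage, gave 0.18, 0.021, 0.42 and 0.074 in ICSS pools, against 0.056, 0.00084, 0.13 and -0.34 in Sham pools. Here too Sham replicate 4 was the lowest pool and ICSS replicate 3 the highest, and the difference of Olig1 was 0.21 (SE 0.12, limma adjusted p = 0.486), or 0.11 (SE 0.10) without Sham replicate 4.

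**Figure D2:**
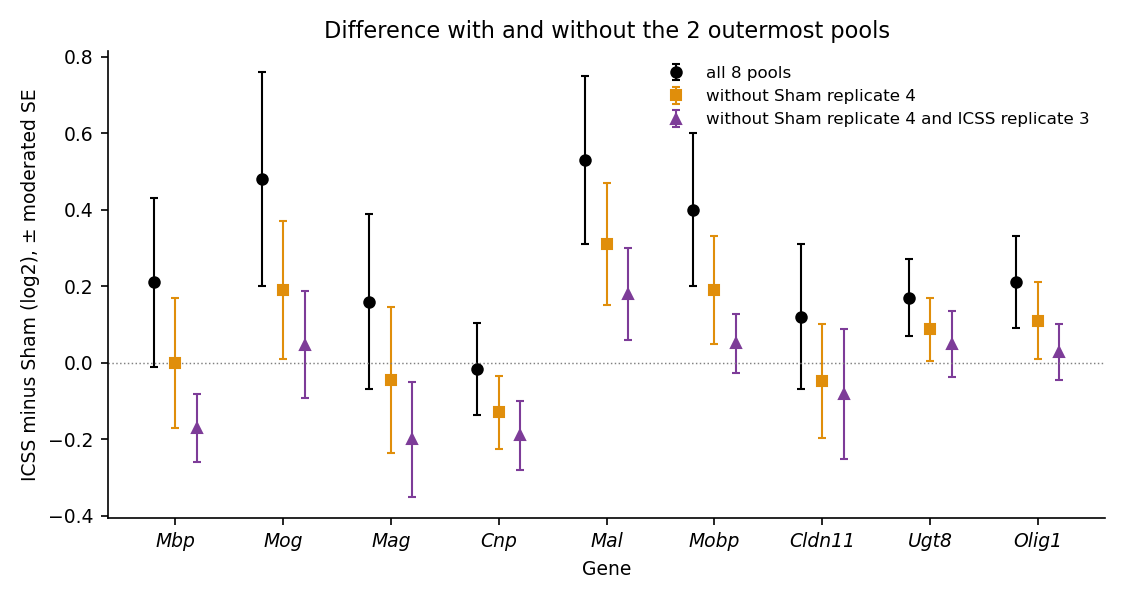
Difference ICSS minus Sham on the log2 scale (vertical axis) for each gene, with the moderated standard error, from all 8 pools, without Sham replicate 4, and without both Sham replicate 4 and ICSS replicate 3. The median over the 9 genes is 0.21, 0.087 and 0.029 in the 3 settings.

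Separate features of a gene mostly followed the same pools. Of the 16 features, 15 were lowest in Sham replicate 4, 12 were highest in ICSS replicate 3, and 14 had a higher mean in ICSS pools. The 3 features of Mobp differed by 0.42, 0.53 and 0.25. The second stood at 0.16, 0.10, 0.70 and 0.26 in ICSS pools, against -0.014, -0.11, -0.062 and -0.71 in Sham pools. It alone of the 16 had groups that did not overlap, where 7.80% of all units did not, and the share over single features was not counted. It was picked after the values were seen. When each feature was tested alone it had the smallest adjusted p of the 16 (limma adjusted p = 0.244). Features of Ugt8 and of Cnp disagreed in sign. Those of Cnp differed by 0.0032 and -0.036, both well within their errors of 0.14 and 0.11. Of the 3 features of Ugt8, 2 differed by 0.29 and 0.25, and the other by -0.019, with Sham replicate 4 at 0.0069, inside the range of the other pools.

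The outermost values of these genes came from 1 pool of each group. Sham replicate 4 was the lowest of the 8 pools for 9 of the 9 genes, against 20.7% of all units, and ICSS replicate 3 was the highest for 7 of the 9, against 10.8%. Both held for 7 of the 9, against 4.04%. Relative to the mean of the other 3 Sham pools, Sham replicate 4 was lower by a median of 0.83 on the log2 scale over the 9 genes. The deviation of Mog was -1.15, and 0.225% of all units lay below it. The deviation of Mbp was -0.84 and that of Ugt8, the smallest of the 9, was -0.35, with 0.57% and 4.88% of units below them. The 3 features of Ugt8 deviated by -0.56, -0.019 and -0.46. ICSS replicate 3 lay above the mean of the other 3 ICSS pools by a median of 0.54, with 0.69 for Mbp and 0.13 for Cldn11. The mean over the 9 genes was 0.12, -0.14, 0.36 and -0.17 in ICSS pools, against 0.047, -0.15, 0.0059 and -0.74 in Sham pools. Leaving out ICSS replicate 3 and Sham replicate 4 together, a setting chosen after the values were seen, gave a median difference of 0.029, with Mbp at -0.17 (SE 0.089), Mag at -0.20 (SE 0.15) and Mal at 0.18 (SE 0.12). In RNA of whole tissue, fewer cells of a type and less RNA per cell cannot be told apart.

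Over the 8 pools the 36 pairs among the 9 genes correlated with a median Pearson r of 0.88, from 0.69 for Mag and Ugt8 to 0.99 for Mobp and Olig1. These are descriptions over 8 arrays that share a reference and include both outer pools. Over the 6 pools without ICSS replicate 3 and Sham replicate 4 the median r was 0.52, from -0.18 for Mag and Ugt8 to 0.94 for Mbp and Cnp. The agreement was looser without these 2 pools, while Mbp and Cnp still moved together among the others. Among 14862 other named genes, the 6 whose values correlated best with the mean of the 9 were Tekt3 (r = 0.985), Prr5l (0.980), Mcam (0.976), S1pr5 (0.974), Gstt3 (0.972) and Lpar1 (0.971). S1pr5 encodes a sphingosine phosphate receptor and Lpar1 a lysophosphatidic acid receptor, both known in oligodendrocytes. Without the 2 outer pools these r lay between 0.71 for Lpar1 and 0.93 for Tekt3. Over all 8 pools, an r above 0.9 occurred in 144 named genes, or 0.969%. Among them were 10 of 20 sheath protein genes and 10 of 20 mature oligodendrocyte markers outside the set, and 0 of 11 precursor markers. This count rests in part on the 2 outer pools and was not made without them.

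Upstream sequences are shown for 5 of the 6 members that hold a match to a motif of a regulator of the lineage. The other is Mbp, whose match lies in a window wholly inside the annotated gene (250 of 250 bases). RefSeq windows (build GRCr8) were at hand for 7 of the 9 genes, 2 of them for Mbp, and the 250 bases before the annotated start were searched on both strands for ACAAAG, the core bound by SOX factors such as Sox10, and for CTGGCAC or CTGGTAC, the motif described for mouse Myrf. The capitals mark the matches, and sequences run 5′ to 3′ on the strand of the gene.
Mag, chr1:95291045-95291294, minus strand: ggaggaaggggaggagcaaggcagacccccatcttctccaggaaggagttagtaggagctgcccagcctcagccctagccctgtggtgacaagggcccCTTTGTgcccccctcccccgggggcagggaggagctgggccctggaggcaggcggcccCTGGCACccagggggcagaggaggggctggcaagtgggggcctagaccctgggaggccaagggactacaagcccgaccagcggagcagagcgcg
Cnp, chr10:86011254-86011503, plus strand: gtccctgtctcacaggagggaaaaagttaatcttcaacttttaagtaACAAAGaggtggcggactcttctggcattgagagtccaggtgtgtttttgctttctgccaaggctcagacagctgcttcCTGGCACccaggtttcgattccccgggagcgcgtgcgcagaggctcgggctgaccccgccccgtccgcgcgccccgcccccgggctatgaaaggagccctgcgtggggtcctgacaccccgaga
Mal, chr3:135341424-135341673, minus strand: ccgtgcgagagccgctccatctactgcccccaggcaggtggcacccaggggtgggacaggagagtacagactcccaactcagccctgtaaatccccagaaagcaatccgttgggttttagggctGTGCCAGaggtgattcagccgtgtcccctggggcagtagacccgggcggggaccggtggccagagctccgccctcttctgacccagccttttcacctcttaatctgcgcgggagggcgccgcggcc
Cldn11, chr2:114149540-114149789, minus strand: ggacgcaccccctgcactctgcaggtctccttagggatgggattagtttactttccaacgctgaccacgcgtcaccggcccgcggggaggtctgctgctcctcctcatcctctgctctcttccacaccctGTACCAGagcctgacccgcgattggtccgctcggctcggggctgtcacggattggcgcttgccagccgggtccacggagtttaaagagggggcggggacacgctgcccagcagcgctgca
Mobp, chr8:128746982-128747231, plus strand: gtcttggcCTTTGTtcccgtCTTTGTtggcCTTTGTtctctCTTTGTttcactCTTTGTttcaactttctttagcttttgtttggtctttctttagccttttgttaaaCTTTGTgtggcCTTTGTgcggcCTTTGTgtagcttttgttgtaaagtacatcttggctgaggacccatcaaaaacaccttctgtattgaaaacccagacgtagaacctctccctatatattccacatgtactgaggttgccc
Mag, Cnp, Mal and Cldn11 each held 1 match to the Myrf motif, which began 94, 124, 126 and 120 bases upstream, and 5.48% of 33469 promoter windows of the same length held at least 1. The SOX core occurred 8 times in Mobp, within a T-rich stretch, once each in Mag and Cnp, and once in the inner of the 2 windows of Mbp, against 16.3% of all windows with at least 1 match. Ugt8 held neither. As in Mbp, 89 bases of the window of Mag and 115 of that of Mobp lie inside the annotated span of the gene, which begins farther upstream. A match is a run of letters and no evidence of binding.

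Wider lists of the lineage were set beside the 9 genes. In the list of other myelin sheath proteins, 0 of 20 measured genes passed, 17 were higher on average in ICSS, and the median difference was 0.20, or 0.07 without Sham replicate 4. Sham replicate 4 was the lowest pool for 16 of these 20. The groups did not overlap in 3 of the 20, Cryab among them, against 7.80% of all units. Tspan2, a tetraspanin of oligodendrocytes, had -0.04, -0.076, 0.26 and -0.48 in ICSS pools, against -0.082, -0.086, -0.13 and -1.11 in Sham pools. Ermn, a cytoskeletal protein gene of late oligodendrocytes, gave 0.58, 0.43, 0.60 and 0.030 in ICSS pools, against 0.27, 0.15, 0.40 and -0.42 in Sham pools, and Opalin, a membrane protein gene of myelin, gave 0.64, 0.48, 0.81 and -0.16 in ICSS pools, against 0.51, 0.51, 0.45 and -0.46 in Sham pools. All 3 were lowest in Sham replicate 4, and ICSS replicate 4 was the lowest ICSS pool. Gjb1, which encodes connexin of the sheath's gap junctions, ranged from 0.063 to 0.32 over ICSS pools, against -0.39 to 0.056 over Sham pools (difference 0.28, SE 0.10, limma adjusted p = 0.300), and Evi2a differed by 0.20 (SE 0.085, limma adjusted p = 0.367), or 0.13 without Sham replicate 4. Tspan2, Ermn and Opalin were picked after their values were seen.

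Cryab, a small heat shock protein gene counted among the sheath proteins because oligodendrocytes express it strongly, was the exception in size. It stood at 0.60, 0.36, 0.72 and 0.36 in ICSS pools, against -0.71, -0.79, -0.69 and -1.66 in Sham pools, with no overlap. The difference was 1.47 (SE 0.20, limma adjusted p = 0.0502), and without Sham replicate 4 it was 1.24 and passed (limma adjusted p = 0.00996). ICSS replicate 3 lay 0.28 above the mean of the other ICSS pools for Cryab. That was less than for Mbp, Mog, Mag, Mal, Mobp or Olig1, and more than for Cnp (0.24), Ugt8 (0.15) or Cldn11 (0.13). Without both outer pools the difference of Cryab was 1.17 (SE 0.084, limma adjusted p = 0.0157). Cryab is also a stress-induced chaperone of other brain cells, and which cells held the transcript was not measured.

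Mature oligodendrocyte markers gave 0 of 20 calls, with a higher mean in ICSS pools for 19, a median difference of 0.20, and 0.039 without Sham replicate 4. Sham replicate 4 was the lowest pool for 19 of the 20. Tf, the transferrin gene, which oligodendrocytes express for iron supply, was at 0.043, 0.24, 0.89 and 0.14 in ICSS pools, against 0.47, 0.22, 0.21 and -0.87 in Sham pools (difference 0.32, SE 0.28, limma adjusted p = 0.667). S1pr5 gave 0.36, 0.20, 0.75 and 0.06 in ICSS pools, against 0.16, 0.15, 0.22 and -0.54 in Sham pools, nearly the course of Mobp. Gsn, the gelsolin gene, differed by 0.38 (SE 0.17, limma adjusted p = 0.394) and Qdpr, a pteridine reductase gene, by 0.24 (SE 0.11, limma adjusted p = 0.396). Without Sham replicate 4 the differences were 0.027 for Tf, 0.17 for S1pr5, 0.23 for Gsn and 0.14 for Qdpr.

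Lipid synthesis genes followed the outer pools less. Of 15 measured, 0 passed, 10 were higher on average in ICSS, and Sham replicate 4 was the lowest pool for 6. The median difference was 0.082, or 0.029 without Sham replicate 4. Scd, a fatty acid desaturase gene, lay from 0.58 to 0.73 across ICSS pools, against 0.12 to 0.55 across Sham pools, and Elovl7, a fatty acid elongase gene, from 0.047 to 0.33 across ICSS pools, against -0.61 to -0.044 across Sham pools. Neither overlapped between groups. The difference was 0.28 for Scd (SE 0.090, limma adjusted p = 0.254) and 0.42 for Elovl7 (SE 0.12, limma adjusted p = 0.216). Fa2h, the hydroxylase gene of myelin galactolipids, gave 0.22, 0.005, 0.38 and 0.072 in ICSS pools, against -0.071, 0.0095, -0.21 and -0.17 in Sham pools. Its difference was 0.28 (SE 0.089, limma adjusted p = 0.253), or 0.26 without Sham replicate 4. The groups did not overlap in 4 of the 15, where 7.80% of all units did not.

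Transcription factors of the lineage were uneven. Of 11 measured, 0 passed, 8 were higher on average in ICSS, and the median difference was 0.10, or 0.11 without Sham replicate 4. Sox10, which drives myelin genes, followed the 9 genes closely (r = 0.97), at 0.43, 0.24, 0.66 and 0.13 in ICSS pools, against 0.37, 0.24, 0.14 and -0.46 in Sham pools. Olig2, the partner of Olig1, stayed within a narrow range, at 0.11, 0.051, 0.20 and -0.10 in ICSS pools, against -0.056, -0.20, 0.012 and -0.0038 in Sham pools, and was not low in Sham replicate 4. Myrf, the regulator of the final step of differentiation, was low in ICSS replicate 4 at -0.29, against 0.076 to 0.10 in the other ICSS pools and -0.37 to 0.030 in Sham pools. Nkx6-2, a homeobox gene of mature oligodendrocytes, lay from 0.27 to 0.61 across ICSS pools, against -0.24 to 0.25 across Sham pools (difference 0.34, SE 0.11, limma adjusted p = 0.267). Hes5, a Notch target that holds differentiation back, ran the other way, ranging from -0.51 to -0.38 over ICSS pools, against -0.20 to 0.26 over Sham pools (difference -0.37, SE 0.10, limma adjusted p = 0.195). Id4, an inhibitor of differentiation, differed by 0.17 (SE 0.091). The groups did not overlap in 2 of the 11, Nkx6-2 and Hes5, against 7.80% of all units.

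Of 11 precursor markers measured, 4 were lowest in Sham replicate 4 (36.4%, against 20.7% of all units) and 8 lay below the mean of the other Sham pools there. Their median deviation was -0.059, against -0.83 for the 9 myelin and oligodendrocyte genes, while C1ql1 and Mmp15 lay above by 0.40 and 0.58, which raised the list mean. Mmp15 was picked after its values were seen. The precursor mean was -0.22 to -0.17 in ICSS pools, against -0.11 in Sham replicate 4 and -0.15 to -0.10 in the other Sham pools. Pdgfra, the growth factor receptor of precursors, gave -0.21, -0.30, -0.020 and -0.26 in ICSS pools, against -0.32, -0.37, -0.25 and -0.43 in Sham pools, and Cspg4, the NG2 proteoglycan gene, lay from -0.50 to -0.24 across ICSS pools, against -0.59 to -0.14 across Sham pools. Pdgfra differed by 0.14 (SE 0.074, limma adjusted p = 0.455) and Cspg4 by 0.045 (SE 0.10, limma adjusted p = 0.881). C1ql1, which encodes a secreted synaptic organizer and is expressed by precursors in mouse brain, was the 1 called gene of the lineage lists, ranging from -0.30 to -0.20 over ICSS pools, against 0.32 to 0.82 over Sham pools (difference -0.78, SE 0.10, limma adjusted p = 0.0316). That call was lost without ICSS replicate 2 (adjusted p = 0.152), ICSS replicate 3 (0.129), ICSS replicate 4 (0.0961), Sham replicate 1 (0.0753) or Sham replicate 3 (0.125). Tnr and Ptprz1, genes of extracellular matrix and its receptor in precursors, differed by -0.15 (SE 0.054) and -0.16 (SE 0.063) without overlap, at limma adjusted p of 0.300 and 0.328. With C1ql1, the groups did not overlap in 3 of the 11, against 7.80% of all units.

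Among newly formed oligodendrocyte markers, 0 of 11 passed, 7 were higher on average in ICSS, and the median difference was 0.049, or 0.016 without Sham replicate 4. Bcas1, a marker of cells starting to myelinate, resembled the mature genes (r = 0.97), with 0.088, -0.023, 0.34 and -0.25 in ICSS pools, against -0.082, -0.15, -0.15 and -0.76 in Sham pools. Its difference was 0.33 (SE 0.16, limma adjusted p = 0.448), or 0.17 without Sham replicate 4. Enpp6, a choline phosphodiesterase gene of the same stage, was at -0.53 in Sham replicate 4 and between -0.15 and 0.072 in every other pool. Prom1 and Rap2a, with no such drop, differed by -0.22 (SE 0.079) and -0.14 (SE 0.072), at limma adjusted p of 0.310 and 0.457.

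**Figure D3:**
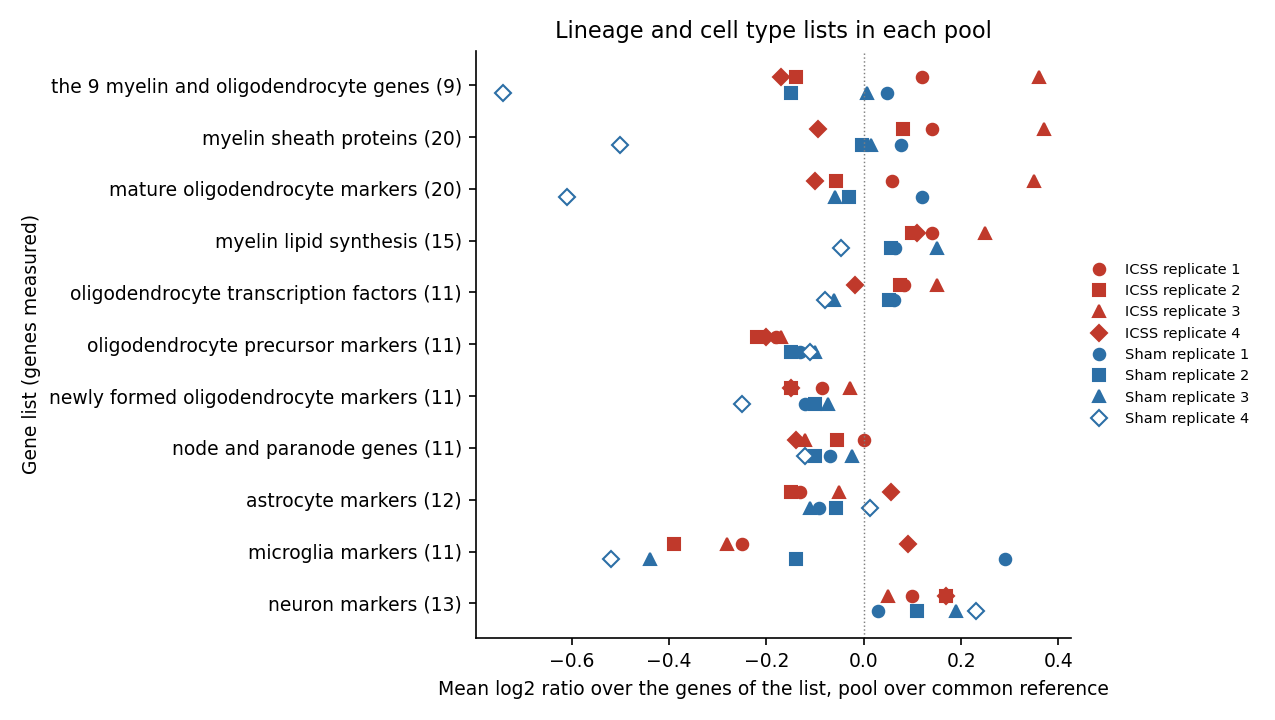
Mean log2 ratio to the common reference (horizontal axis) over the measured genes of the lists shown (vertical axis) in ICSS pools (red) and Sham pools (blue, Sham replicate 4 open). Lists of choroid plexus, endothelial, thalamus and hippocampus markers and of myelination signals are not shown. Sham replicate 4 lies at -0.74 for the 9 genes, -0.50 for other sheath proteins, -0.61 for mature markers, -0.52 for microglia markers and -0.11 for precursor markers. Its mean for choroid plexus markers, not shown, was lower, at -1.33.

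Among axonal partners of myelin, node and paranode genes had 0 of 11 calls and 4 higher means in ICSS pools. Their median difference was -0.044, or -0.022 without Sham replicate 4. Their ranges over the 8 pools ran from 0.18 for Nrcam to 0.85 for Epb41l3, both chosen after their values were seen. Cntnap1, the axonal protein of the paranodal junction, lay from -0.27 to -0.14 across ICSS pools, against -0.29 to -0.018 across Sham pools (difference -0.087, SE 0.070, limma adjusted p = 0.634). Sptbn4, the spectrin gene of nodes, differed by -0.18 (SE 0.083), Ank3, their ankyrin gene, by 0.11 (SE 0.059), and Kcna1, a juxtaparanodal potassium channel gene, by 0.18 (SE 0.12). Without Sham replicate 4, Sptbn4 differed by -0.11 and Kcna1 by 0.042. Kcna1 was at -0.20 in Sham replicate 4 and between 0.26 and 0.45 in all other pools. Signals and receptors of myelination had 0 of 22 calls, 13 higher means and a median difference of 0.024, with the groups not overlapping in 6 of the 22, against 7.80% of all units. Bdnf, a neurotrophin gene, had the smallest p, ranging from 1.04 to 1.35 over ICSS pools, against 0.69 to 0.79 over Sham pools (difference 0.46, SE 0.069, limma adjusted p = 0.0654). Cxcl12, a chemokine gene, differed by -0.43 (SE 0.11) and Adgrb3, an adhesion receptor gene, by -0.26 (SE 0.070), at limma adjusted p of 0.190 and 0.197.

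**Figure D4:**
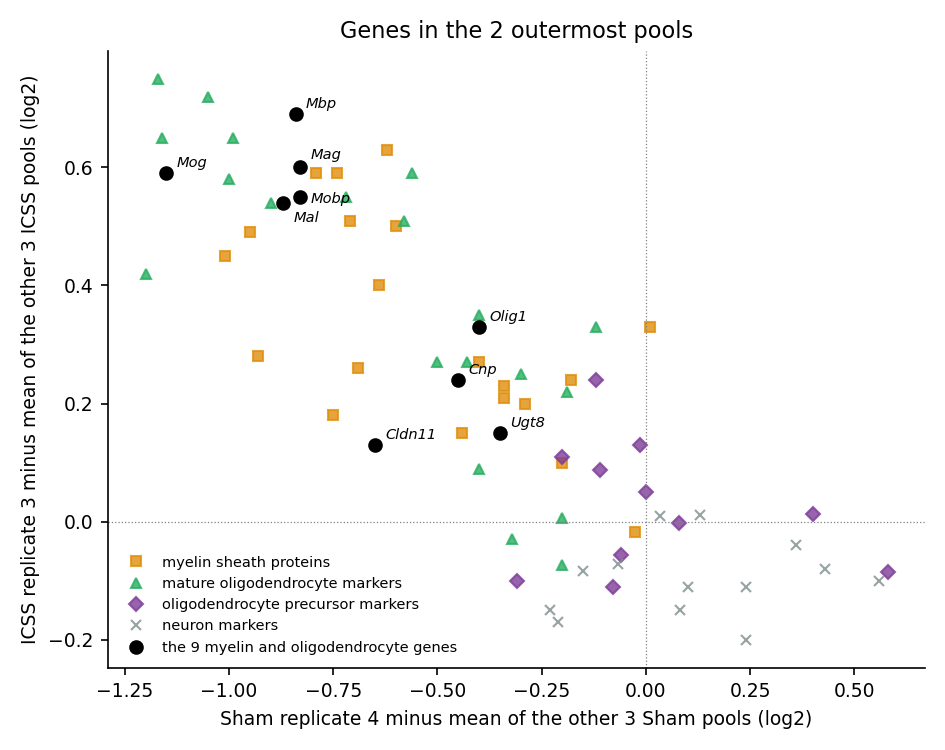
Log2 deviation of Sham replicate 4 from the mean of the other 3 Sham pools (horizontal axis) against that of ICSS replicate 3 from the mean of the other 3 ICSS pools (vertical axis), 1 point per gene. The 9 genes (black), sheath proteins and mature markers extend to the upper left, with Mog at -1.15 and 0.59, while most precursor and neuron markers lie closer to 0. Other lists are not plotted. Their median deviation in Sham replicate 4 was -0.44 for microglia and -0.59 for choroid plexus markers, against 0.04 for astrocyte and -0.013 for endothelial markers. That of mature markers was -0.53.

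Markers of other cells in Sham replicate 4 differed between lists. Microglia markers were lowest in that pool for 8 of 11, and the list mean was -0.39 to 0.092 in ICSS pools, against -0.52 in Sham replicate 4 and -0.44 to 0.29 in the other Sham pools. Choroid plexus markers were lowest in Sham replicate 4 for 4 of 9. All 9 lay below the mean of the other Sham pools there, but Sham replicate 1 raised that mean. The list mean was 0.88 in Sham replicate 1, against -0.86 and -1.22 in Sham replicates 2 and 3. It was -0.90 to 0.11 in ICSS pools, and -1.33 in Sham replicate 4. Neuron markers were lowest there for 2 of 13, and averaged 0.05 to 0.17 in ICSS pools, against 0.23 in Sham replicate 4, the highest of the 8 pools, and 0.029 to 0.19 in the other Sham pools. In Sham replicate 4, 4 of the 13 lay below the mean of the other Sham pools, and the median deviation was 0.10. Astrocyte markers averaged -0.15 to 0.057 in ICSS pools, against 0.013 in Sham replicate 4 and -0.11 to -0.056 in the other Sham pools. S100b, picked after its values were seen, was at -0.072 in Sham replicate 4, against -1.45 to -1.39 in the other Sham pools, which raised that mean. Endothelial markers averaged -0.080 to 0.044 in ICSS pools, against -0.13 in Sham replicate 4 and -0.12 to -0.056 in the other Sham pools. None of these lists held a called gene. Their part in the result for the 9 genes was not tested. Among defining genes, Gfap of astrocytes differed by 0.35 (SE 0.21), Aif1 of microglia by -0.16 (SE 0.23), Pecam1 of endothelium by 0.18 (SE 0.074), Ttr of choroid plexus by 0.33 (SE 0.65), Rbfox3 of neurons by -0.14 (SE 0.079) and Slc17a6 of thalamic neurons by 0.031 (SE 0.26), with limma adjusted p from 0.362 to 0.971. Without Sham replicate 4 the difference was 0.22 for Gfap, -0.33 for Aif1, -0.12 for Ttr and 0.27 for Slc17a6. Microglial and choroid plexus means varied among Sham replicates 1 to 3 as well, at 0.29, -0.14 and -0.44 for microglia, while the 9 genes averaged 0.047, -0.15 and 0.0059 in those pools.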

How the data were processed

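For 45220 features the authors deposited log2 ratios, 1 value for each array, with the pool in Cy5 and the common reference in Cy3 per the labels. The submitters' processing notes name limma and give no version. How background and dyes were corrected is not given in these sources, and a log2 scale was assumed because limma works on it. The labels put hippocampus, thalamus and cortex in the reference, while the design text names hippocampus. This affects levels, and cancels between groups. No spot intensities were used, dim spots could not be filtered, and the number of arrays limits precision.

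The platform annotation gave 1 symbol for 25353 features, several for 48 and none for 19819, and 25306 matched a current gene of the GRCr8 table. Features of a gene were averaged, which with unnamed probes made 34738 units. ICSS and Sham were compared in limma 3.58.1 under R 4.3.3 with lmFit and eBayes (two-sided, prior of 3.83 degrees of freedom, Benjamini-Hochberg over every unit, threshold 0.05). The procedure was tested on simulated data. The labels call the pools biological replicates.

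The 9 members and the wider lists were chosen with earlier results of these data known, so no test was made over a list. Named were the 9 members, in each lineage list the called genes filled to 3 by p plus set defining genes, the 6 genes most correlated with the members, and defining genes of other cells. Other genes were picked after their values were seen. Trf was matched as Tf, and list entries without a feature were not analysed here. The alternatives tried were centring, scaling and quantile normalization of arrays, weights for arrays, a block on replicate number, robust moderation, single features, feature medians, named genes alone, and each pool left out.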

Additional observations from a re-analysis of the deposited data

Results flagged for a closer look

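In 7 of 94 groups of 4 pools checked over 47 named genes, 1 pool lay so far from the other 3 that its gap to the nearest exceeded Dixon's 95% critical share of the whole range. Chance flags about 1 group in 20, and flags on the same array are not independent of each other. Sham replicate 4 was the pool in 6 of the 7, below the other Sham pools each time. Among the members these were Mobp, at -1.03 against -0.22 to -0.15 (gap 0.916 of the range), and Mog, at -1.01 against 0.044 to 0.24 (0.847). Others of the lineage were S1pr5, at -0.54 against 0.15 to 0.22 (0.917), Bcas1, at -0.76 against -0.15 to -0.082 (0.896), Elovl7, at -0.61 against -0.12 to -0.044 (0.870), and Cryab, at -1.66 against -0.79 to -0.69 (0.890). The seventh was Myrf in ICSS replicate 4, at -0.29 against 0.076 to 0.10 in the other ICSS pools (0.929).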

How the results depend on the processing

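None of the 9 members passed under any of the 18 alternatives, with limma adjusted p from 0.201 to 0.999, and their median difference lay between 0.029 and 0.29. The sign of single members was less stable. With 1 pool left out at a time, differences ranged from -0.0014 to 0.30 for Mbp, -0.045 to 0.32 for Mag, -0.13 to 0.062 for Cnp and -0.048 to 0.23 for Cldn11, with every negative value of Mbp, Mag and Cldn11 coming without Sham replicate 4. Without both ICSS replicate 3 and Sham replicate 4 (chosen after the data were seen), Mbp was at -0.17, Mag at -0.20, Cnp at -0.19, Cldn11 at -0.081, Tf at -0.16, Enpp6 at -0.060 and Ttr at -0.091. Leaving out 1 pool also gave ranges of 0.027 to 0.47 for Tf, -0.015 to 0.16 for Enpp6, -0.021 to 0.13 for Cspg4, -0.33 to 0.090 for Aif1, -0.12 to 1.03 for Ttr and -0.15 to 0.27 for Slc17a6, and quantile normalization gave -0.14 for Slc17a6. The count of called units, 16 with all pools, was 34 with quantile normalization, 34 with array weights, 53 with every feature as a unit, 0 to 153 with 1 pool left out, and 1 without both outer pools. It was 0 without ICSS replicate 2 or ICSS replicate 3 (3455 and 3311 at an unadjusted p under 0.05), 153 without ICSS replicate 1, 6 without ICSS replicate 4, 1 without Sham replicate 1 or Sham replicate 3, and 10 without Sham replicate 2. Over all units, same-numbered pools did not deviate together (correlations of -0.05 to 0.06). This cannot settle whether the numbers pair them for single genes. A block on replicate number lowered the SE of all 9 members, from 0.28 to 0.14 for Mog and from 0.23 to 0.17 for Mag. The limma fit with the replicate block called 0 units (4543 at an unadjusted p under 0.05) and put Mal at adjusted p = 0.201 and C1ql1 at 0.0895, which without both outer pools was at 0.066. Cryab, at adjusted p = 0.0502, lay between 0.00996 and 0.162 with 1 pool left out. The cause of these changes was not tested, and 4 pools a group limit what could be seen.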

Other observations

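Some genes of the lineage lists did not follow the 9 myelin and oligodendrocyte genes. Omg, whose product is a surface glycoprotein shared by oligodendrocytes and neurons, had -0.083, 0.055, -0.048 and -0.064 in ICSS pools, against -0.068, 0.14, 0.17 and 0.056 in Sham pools, with no drop in Sham replicate 4 (r = -0.33 with the mean of the 9). Sirt2, a deacetylase gene of the sheath, had r = 0.29 and differed by -0.14 (SE 0.090). Hes5 had r = -0.78 and was highest in Sham replicate 4, at 0.26, and Sptbn4 had r = -0.82, with 0.19 in that pool. Among myelination signals, Erbb3, a neuregulin receptor gene of the lineage, ranged from 0.15 to 0.26 over ICSS pools, against -0.85 to 0.062 over Sham pools (difference 0.47, SE 0.17, limma adjusted p = 0.316, or 0.27 without Sham replicate 4). Fgf2, the gene of a growth factor for precursors, ranged from 0.55 to 0.76 over ICSS pools, against -0.017 to 0.45 over Sham pools (difference 0.34, SE 0.10, limma adjusted p = 0.227). Lingo1, an inhibitor of myelination, had -0.56, 0.37, 0.21 and 0.56 over ICSS pools, against -0.53, -0.54, -0.29 and -0.22 over Sham pools. These genes other than Hes5 and Sptbn4 were picked after their values were seen, the correlations are descriptions over 8 arrays, and none of the differences passed the threshold.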
